A study of Homo sapiens with 4 samples.

Results

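The genes described here are 35 genes of the actin cytoskeleton, many of them known targets of serum response factor (SRF), taken from a list of names. The list was drawn up with earlier results of these data known. The shares over all genes given beside it below therefore describe the list and are no independent check on it. Of these, 30 had a probe set, the unit of an Affymetrix array, annotated with that gene symbol alone. The brightest such probe set, by mean intensity over the 4 arrays, stands for each gene. A gene is called measured if that mean was at least 113.6, the median over all probe sets, and 29 of the 30 genes passed among 12759 measured genes in all. CNN1 did not pass. ACTG1, TPM3, FLNA, FLNC and FHL1 had no probe set of their own name alone and have no value of their own here.

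The cells were MCF10A, a non-tumorigenic human mammary epithelial line, infected with retrovirus made from pQCXIH. The virus was empty in the group Vector and carried wild-type YAP in YAP-WT, YAP with the S94A change in YAP-S94A, and YAP with both WW domains mutated in YAP-W1W2. YAP is a coactivator restrained by the Hippo pathway, S94A lies in its contact with the TEAD transcription factors, and WW domains bind proline-rich partners. All 4 cultures, the control included, received virus and grew in 5% horse serum with EGF at 20 ng/ml, hydrocortisone, insulin and cholera toxin. How long the cells were infected, and whether they were clones or pools, is not given in the sources used here. There was 1 array for each group, so no difference below has a replicate check, and no test or error between samples can be given.

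As background, actin monomers add to filaments that myosin II pulls on, tropomyosins coat, and crosslinkers and focal adhesions anchor. Free actin monomer holds back the MRTF coactivators, and when monomer is used up by filament growth MRTF joins SRF on a DNA element called the CArG box, at genes many of which encode actin and its partners. Serum is a classic trigger of this loop, and YAP responds to the same tension on actin filaments.

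Over all arrays the 2% trimmed means differed by a ratio of at most 1.098, and intensities were used as deposited, with values under 72.9 raised to that floor. The median measured gene lay above Vector by a log2 value of 0.14 under YAP-WT, 0.14 under YAP-S94A and 0.10 under YAP-W1W2. Of 12 basal mammary epithelial markers 9 had a probe set of their own and all 9 were measured, with summed intensities from 108719 to 136697. Among 9 smooth muscle and myofibroblast markers, all with a probe set, 4 were measured. The sum over all 9 ran from 2129 to 3705, and LMOD1 and CNN1 were at the floor on all arrays. Of 8 fibroblast markers, all with a probe set, 4 were measured. The sum over all 8 was 10362 for Vector, 5340 for YAP-WT, 1435 for YAP-S94A and 1827 for YAP-W1W2. In Vector and YAP-WT most of this sum was DCN (decorin). On the 4 arrays in turn DCN read 9344, 3884, 288 and 248, while COL1A1 read 452, 1105, 409.9 and 719. COL1A2 read 99.3, 122, 190 and 232.5, and THY1 read 241, 33.7, 246 and 317. Of the 4 measured fibroblast markers, DCN alone was thus lower than Vector in each YAP form. The 3 spike-in series bioB, bioC and bioD lay below Vector by a median log2 value of −0.37 under YAP-WT, −0.70 under YAP-S94A and −1.09 under YAP-W1W2, while the spike-in cre differed by 0.02, −0.01 and −0.16. The GAPDH controls lay above Vector by 0.22, 0.44 and 0.44. The part of these shifts and of the epithelial and fibroblast markers in the results below was not tested. In RNA from a whole culture, fewer cells of a kind and less transcript per cell cannot be told apart.

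The DNA element bound by SRF could be looked for in the promoters. RefSeq promoter windows (GRCh38.p14), from 250 bases before a start site to 50 bases after it, matched 32 of the 35 genes by symbol, with 71 windows. A CArG box, read here as CC, then 6 letters that are A or T, then GG, the same on both strands, lay in 12 of these 71 windows (16.9%) and in 454 of all 35116 windows (1.29%). The genes were ACTG1, ACTN1, CNN2, TPM4, FLNA, FHL1, FHL2, SRF, LPP and TES, 10 of 32, against 1.6% of all genes with a window. The 6 letters GGAATG, a core of the TEAD motif, searched on both strands, lay in 23.9% of member windows and 14% of all windows. By gene this was 15 of 32, against 16.7% of all genes with a window. The 15 were ACTA2, ACTN1, CNN3, MYH9, MYH10, VCL, FLNC, FHL1, FHL2, CALD1, LIMA1, PFN1, LPP, PXN and TES. The AP-1 motif TGANTCA, also on both strands, lay in 12.7% and 7.71%. The list was made partly of known SRF targets, so its higher share of CArG boxes follows in part from how it was made. Neighbouring start sites of a gene can also count the same site more than once. These matches describe letters and not binding.

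Windows with a CArG box are printed for the 7 measured genes that have one, and windows with GGAATG or its complement for CNN3 and LIMA1, whose intensities are described further down. Each is written 5′ to 3′ along the gene, with CArG boxes and TEAD motifs in capitals and the rest in lower case. In ACTN1 both motifs stand in capitals, and in TES they overlap, so that GGAATG begins inside the CArG box.
CNN2, chr19:1026494-1026553, plus strand: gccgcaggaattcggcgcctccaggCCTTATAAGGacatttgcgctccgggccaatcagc
FHL2, chr2:105399076-105399135, minus strand: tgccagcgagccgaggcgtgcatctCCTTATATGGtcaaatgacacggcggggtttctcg
TPM4, chr19:16067340-16067399, plus strand: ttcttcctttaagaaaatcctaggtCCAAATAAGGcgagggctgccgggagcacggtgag
ACTN1, chr14:68977703-68977762, minus strand: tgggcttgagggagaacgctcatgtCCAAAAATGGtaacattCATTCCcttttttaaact
SRF, chr6:43171214-43171268, plus strand: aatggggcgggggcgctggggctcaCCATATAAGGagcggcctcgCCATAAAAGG
LPP, chr3:188212504-188212563, plus strand: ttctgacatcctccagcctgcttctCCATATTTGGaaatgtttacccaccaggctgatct
TES, chr7:116222703-116222745, plus strand: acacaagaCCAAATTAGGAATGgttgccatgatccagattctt
CNN3, chr1:94925881-94925936, minus strand: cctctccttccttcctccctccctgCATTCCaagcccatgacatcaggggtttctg
LIMA1, chr12:50202174-50202214, minus strand: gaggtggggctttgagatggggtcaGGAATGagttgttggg

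The SRF gene itself carries 2 CArG boxes, which begin at −30 and −10. Counted from the start site, the box of CNN2 begins at −89, that of TPM4 at −173, that of ACTN1 at −171, that of LPP at −183 and that of TES at −242. FHL2 has a box at −59 from 1 of its start sites and another at −101 and −85 from a pair of neighbouring start sites.

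**Figure D1:**
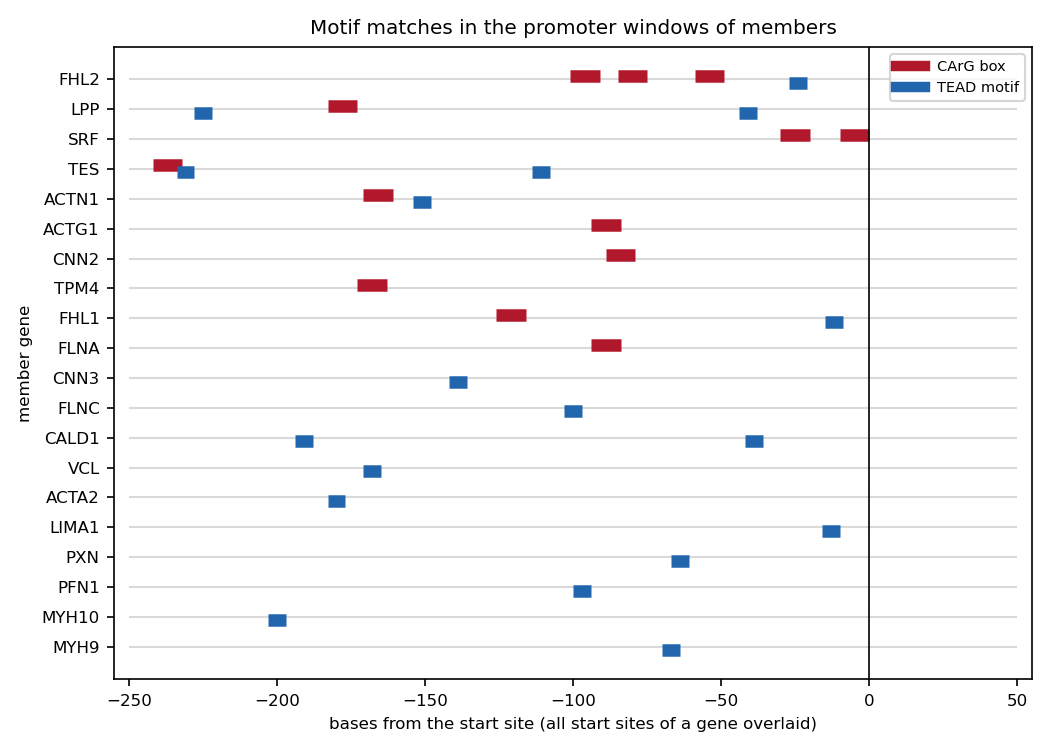
Position of CArG boxes (red) and TEAD motifs (blue) in the promoter windows of members, in bases from the start site, with all start sites of a gene overlaid. CArG boxes stand in 10 genes, and the 2 of SRF begin at −30 and −10.

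Each YAP form was compared with Vector to ask whether genes of the actin cytoskeleton differ when YAP is expressed. In YAP-WT 7 of the 29 measured members were at least 2-fold higher than in Vector (24.1%), against 9.11% of all measured genes. They were TAGLN, CNN3, TPM2, MYL9, ZYX, LIMA1 and PDLIM7, which are parts of contractile filaments and their anchors. No member was at least 2-fold lower, against 4.95% of all measured genes. The median log2 fold of the members was 0.56, or 0.43 above the median of all measured genes. Of the 29 members 26 were above 0, against 59.9% of all measured genes. With the median gene set to 0, or under each of 3 other rescalings of the arrays, 4 of the 7 remained past 2-fold: TAGLN, CNN3, TPM2 and LIMA1. These were 13.8% of the members, against 7.14% to 7.98% of all genes measured under those settings. With only probe sets whose suffix marks no sharing between transcripts, 2 of 20 measured members were higher (10%), near the 9.33% of all genes measured that way.

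In YAP-S94A 4 members were at least 2-fold higher than in Vector, TAGLN, CNN3, ZYX and PDLIM7 (13.8%, against 10.3% of all measured genes). Only SRF was at least 2-fold lower, against 6.53% of all. The share above 2-fold is thus near that of all genes, while the median log2 fold of the members was 0.48, or 0.34 above that of all measured genes. With the unshared probe sets alone 2 of 20 were higher (10%, against 9.98% of all) and 0 lower. In YAP-W1W2 9 members were at least 2-fold higher than in Vector: TAGLN, CNN2, CNN3, TPM1, TPM2, MYL9, ZYX, FHL2 and PDLIM7 (31%, against 11.4% of all). None was at least 2-fold lower, against 8.4% of all. The median log2 fold was 0.71, or 0.60 above that of all measured genes. With the unshared probe sets alone 4 of 20 were higher (20%, against 11.3% of all). These comparisons share the Vector array, and the list was chosen with earlier results of these data known.

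**Figure D2:**
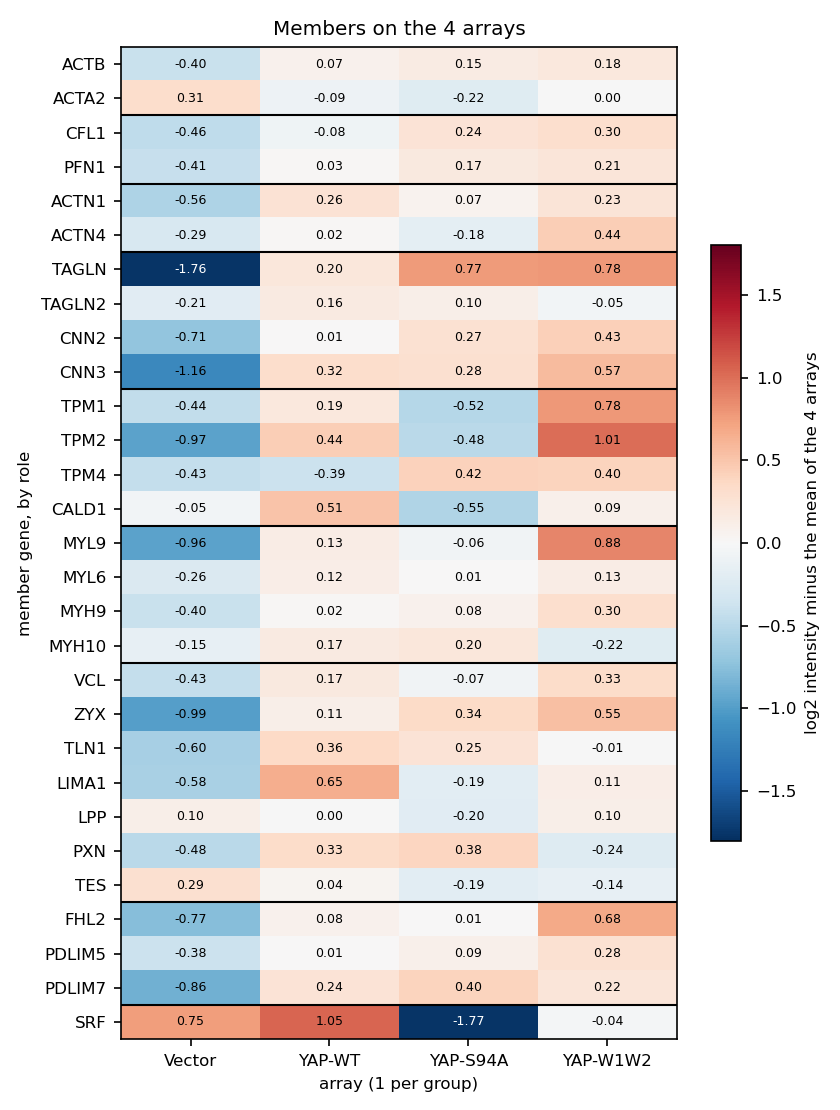
Log2 intensity of each measured member on each array minus the mean of its 4 arrays, grouped by role. Vector is the lowest array for most members and YAP-W1W2 the highest for 17 of 29, while SRF is lowest in YAP-S94A.

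Vector held the lowest of the 4 values for 22 of 29 members (75.9%), against 38.7% of all measured genes. YAP-W1W2 held the highest for 17 members (58.6%), against 22.4% of all. YAP-WT was the lowest array for 0 members, against 16.4% of all. YAP-S94A was the lowest for 6: ACTA2, TPM1, SRF, CALD1, LPP and TES. That share of 20.7% is near the 17.8% of all measured genes. Of the 29 members, 17 were among the 1276 brightest measured genes, where the median log2 fold over Vector of all genes was 0.16 under YAP-WT, 0.21 under YAP-S94A and 0.20 under YAP-W1W2. With genes split into 10 bins of brightness and the median of each bin set to 0, the members' medians over Vector were 0.40, 0.28 and 0.53, so they stayed above 0.

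**Figure D3:**
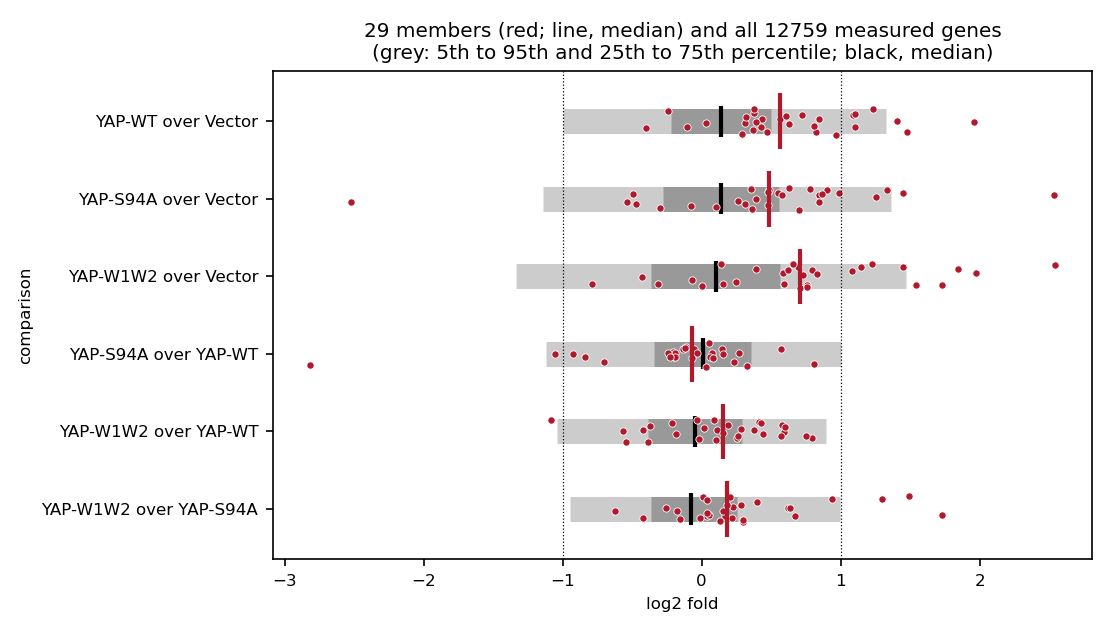
Log2 fold of each of the 29 members (red points, spread vertically for legibility; red line, median) in 6 comparisons, over the 5th to 95th and the 25th to 75th percentile of 12759 measured genes (grey) and their median (black). The members' medians of 0.56, 0.48 and 0.71 in the comparisons with Vector lie to the right of the medians of all genes.

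Actin itself was brighter with every form of YAP. ACTB, cytoplasmic beta-actin, read 32866 for Vector, 45609 for YAP-WT, 48072 for YAP-S94A and 49363 for YAP-W1W2, or 1.39-fold, 1.46-fold and 1.5-fold over Vector. Its other measured probe sets gave log2 folds of 0.246 and 0.255 in YAP-WT, near the 0.216 of the GAPDH controls. They gave 0.543 and 0.572 in YAP-S94A, and 0.727 and 0.765 in YAP-W1W2, against 0.442 and 0.444 for GAPDH. Gamma-actin (ACTG1), the other cytoplasmic actin, shares 9 probe sets with ACTB. Their median intensity was 26096 for Vector, 34676 for YAP-WT, 36196 for YAP-S94A and 39983.5 for YAP-W1W2, and all 9 were higher than in Vector in each YAP form. The array's own ACTB controls lay above Vector by log2 values of 0.43, 0.69 and 0.80, more than the GAPDH controls given above. Their ratio of 3′ to 5′ signal ran from 0.964 to 1.155, with Vector highest.

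ACTA2, the actin of smooth muscle and myofibroblasts, went the other way. It read 1414 for Vector, 1071 for YAP-WT, 977 for YAP-S94A and 1137 for YAP-W1W2, log2 folds of −0.40, −0.53 and −0.31. Vector was its highest array, and none of the 3 differences reached 2-fold.

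The genes that turn filaments over were modestly higher. Cofilin (CFL1), which severs filaments, read 19088 for Vector, 24791 for YAP-WT, 31033 for YAP-S94A and 32258 for YAP-W1W2, at most 1.69-fold over Vector. Profilin (PFN1), which feeds monomers to growing ends, read 15758, 21279, 23535 and 24225, at most 1.54-fold. Both were lowest in Vector and higher in the mutants than in YAP-WT.

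Among crosslinkers, ACTN1, the alpha-actinin of stress fibres, read 8901 for Vector, 15764 for YAP-WT, 13752 for YAP-S94A and 15417 for YAP-W1W2, or 1.77-fold, 1.55-fold and 1.73-fold over Vector. Its other probe sets gave log2 folds of up to 1.88, 1.70 and 2.12 in turn. ACTN4, a sister alpha-actinin, read 6199, 7687, 6672 and 10251, with its highest value in YAP-W1W2 at 1.65-fold. In YAP-S94A its log2 fold of 0.11 turned negative under each of 4 rescalings.

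Transgelins and calponins bind along filaments in contractile cells. Their median log2 folds over Vector of 1.10, 1.22 and 1.44 were the highest of any role in the list. In YAP-W1W2, however, TPM2 and MYL9 lay above every gene of this group but TAGLN. TAGLN, also known as SM22 and a classic SRF target, read 1913 for Vector, 7449 for YAP-WT, 11055 for YAP-S94A and 11121 for YAP-W1W2. It was 3.89-fold, 5.78-fold and 5.81-fold over Vector, the highest fold of the list in each. All 3 of its measured probe sets were higher than in Vector in each YAP form, with log2 folds from 0.70 to 2.62. The 2 mutants read nearly alike and lay 1.48-fold and 1.49-fold above YAP-WT.

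CNN3, the calponin of non-muscle cells, read 899 for Vector, 2507 for YAP-WT, 2453 for YAP-S94A and 2983 for YAP-W1W2, or 2.79-fold, 2.73-fold and 3.32-fold over Vector. A second, dimmer probe set gave log2 folds of 2.02, 2.69 and 3.09. CNN2 read 1689, 2783, 3349 and 3734.5, or 1.65-fold, 1.98-fold and 2.21-fold. Both genes were thus lowest in Vector and highest in YAP-W1W2. CNN1, the calponin of smooth muscle, was at most 35.2 on any array and lay under the floor on all 4. TAGLN2, the broadly expressed transgelin, read 11354, 14635, 14102 and 12628 and was never above 1.29-fold, so within this family TAGLN and TAGLN2 differed in the size of their folds.

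**Figure D4:**
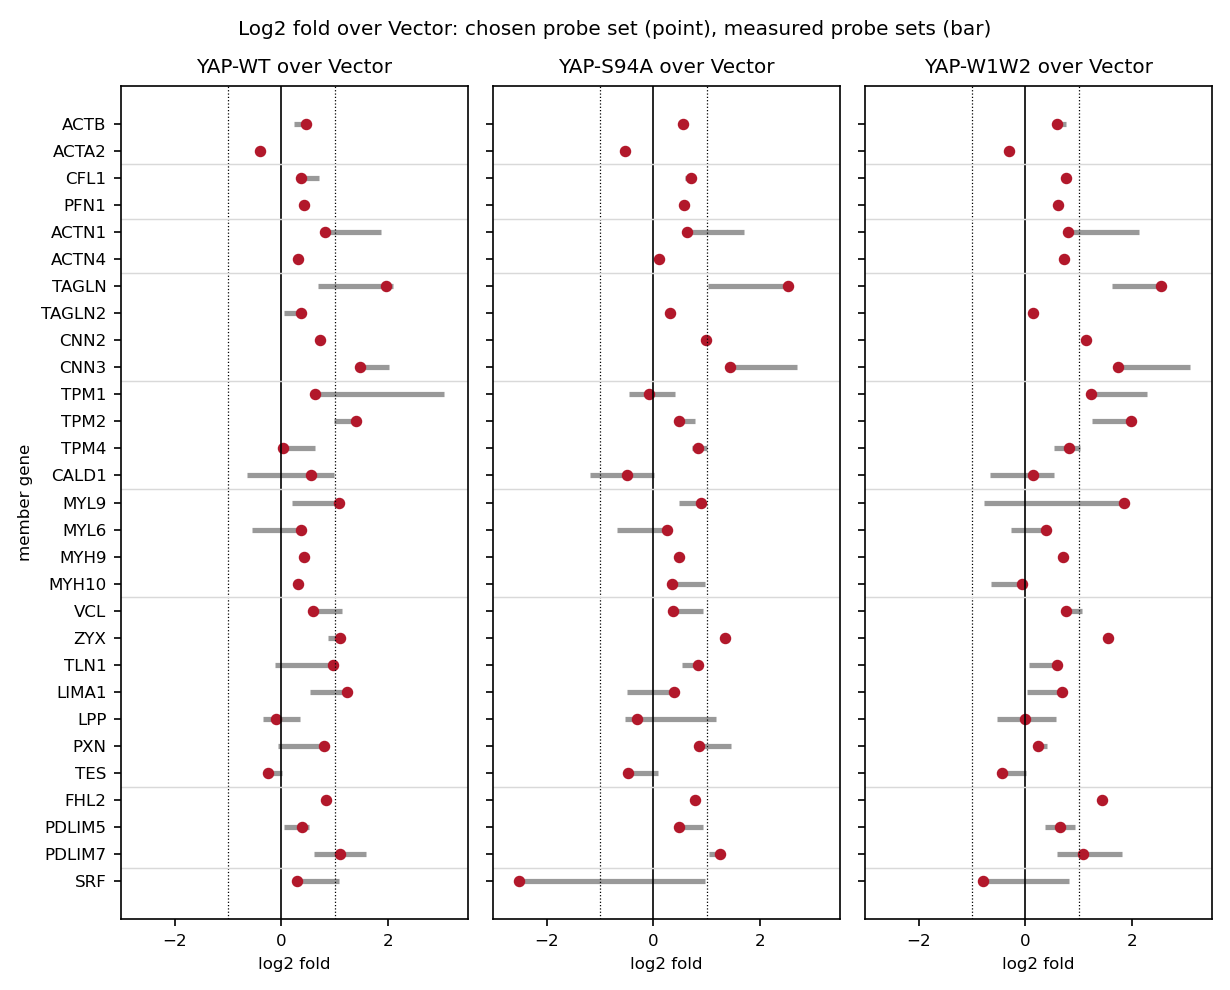
Log2 fold over Vector of each measured member for the probe set that stands for it (red point), with the lowest to highest value over its measured probe sets (grey bar) and dotted lines at 2-fold. The point of TAGLN lies farthest right in each panel, and the bars of SRF, CALD1 and MYL9, among others, reach both sides of 0 in YAP-W1W2.

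Tropomyosins lie along the filament and set which partners bind, and here their transcripts did not move as 1 group. TPM1 read 11744 for Vector, 18176 for YAP-WT, 11164 for YAP-S94A and 27411 for YAP-W1W2. It was 1.55-fold over Vector in YAP-WT and 2.33-fold in YAP-W1W2, while YAP-S94A stood at a log2 fold of −0.07. TPM2 read 3239, 8574, 4524 and 12742, or 2.65-fold, 1.40-fold and 3.93-fold over Vector. For both genes YAP-W1W2 was the highest array and YAP-S94A the lowest of the YAP arrays.

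TPM4 had another order. It read 1839.6 for Vector, 1881 for YAP-WT, 3298 for YAP-S94A and 3263 for YAP-W1W2, with both mutants above Vector and YAP-WT. Its log2 fold in YAP-WT was 0.03, which turned negative under each of 4 rescalings, and 0.84 and 0.83 in the mutants. The other 2 measured probe sets of TPM4 put YAP-WT higher, at 0.63 and 0.59. Caldesmon (CALD1), which tethers myosin to actin filaments, read 10550.1, 15568, 7487 and 11648, highest in YAP-WT and lowest in YAP-S94A. Of its 9 measured probe sets, 8 were above Vector in YAP-WT, 8 were below it in YAP-S94A, where the other stood at 0.01 (log2), and 6 were below it in YAP-W1W2.

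Myosin II genes were led by MYL9, a regulatory light chain and known SRF target. It read 856 for Vector, 1824 for YAP-WT, 1599.8 for YAP-S94A and 3072 for YAP-W1W2, or 2.13-fold, 1.87-fold and 3.59-fold over Vector. A dimmer MYL9 probe set went the other way in YAP-W1W2, with a log2 fold of −0.77. MYL6, the essential light chain, read 19929, 25857, 23912 and 26162, at most 1.31-fold, and a dim second probe set of it was lower than Vector in each YAP form. MYH9, the main non-muscle heavy chain, read 3629, 4869, 5067 and 5919, at most 1.63-fold. MYH10, another heavy chain, read 2551, 3179, 3257 and 2430.1 and was the only measured member lowest in YAP-W1W2.

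Of the 7 adaptors of focal adhesions and stress fibres, ZYX and LIMA1 passed 2-fold over Vector in YAP-WT, and ZYX alone did so in each mutant. Zyxin (ZYX), which gathers at strained stress fibres, read 1782 for Vector, 3822 for YAP-WT, 4497 for YAP-S94A and 5189.8 for YAP-W1W2, or 2.15-fold, 2.52-fold and 2.91-fold. LIMA1, or EPLIN, which stabilises filaments, read 4409, 10370.3, 5785 and 7129, with YAP-WT 2.35-fold over Vector and above both mutants. All 3 LIMA1 probe sets had YAP-WT above each mutant.

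Vinculin (VCL), which links talin to actin, read 8622 for Vector, 13112 for YAP-WT, 11082 for YAP-S94A and 14602 for YAP-W1W2, at most 1.69-fold. Talin (TLN1), which activates integrins, read 599.9, 1169, 1079 and 903, highest in YAP-WT at 1.95-fold. Paxillin (PXN), a docking protein of adhesions, read 1749, 3068, 3185 and 2073, and its dimmer probe set read 455, 434, 1249 and 604. YAP-S94A was the highest array by both PXN probe sets, while the array nearest to Vector differed. By the probe sets that stand for them, these 3 genes were lowest in Vector and had different highest arrays, but a dimmer probe set of TLN1 was lower in YAP-WT than in Vector. LPP, a relative of zyxin, stayed between 2557 and 3151 on the 4 arrays by the probe set that stands for it. Its 6 measured probe sets went both ways in every comparison, from −0.54 to 1.17 (log2) for YAP-S94A over Vector. TES, or testin, was highest in Vector at 7367 and ran from 5311 to 6221 in the YAP arrays, although its second probe set differed from Vector by at most 0.08 (log2). LPP and TES both hold a CArG box in the windows printed above.

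Of the LIM-only and PDZ-LIM genes, FHL2, a LIM-only SRF target, read 2564 for Vector, 4601 for YAP-WT, 4393 for YAP-S94A and 6984 for YAP-W1W2, or 1.795-fold, 1.71-fold and 2.72-fold. PDLIM7, or enigma, read 597, 1280.5, 1428 and 1265, or 2.14-fold, 2.39-fold and 2.12-fold, and its 4 measured probe sets were higher than in Vector in each YAP form. PDLIM5 read 4761, 6248, 6618 and 7502, at most 1.58-fold. Each of the 3 was lowest in Vector. After the median gene was set to 0, PDLIM7 fell short of 2-fold in YAP-WT and YAP-W1W2.

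SRF, the transcription factor of the list, gave 2 answers. Its brighter probe set read 419 for Vector, 513.5 for YAP-WT, 68.9 for YAP-S94A, under the floor, and 242 for YAP-W1W2. By it SRF was at least 5.74-fold lower in YAP-S94A than in Vector and at least 7.04-fold lower than in YAP-WT. The dimmer probe set read 106, 224, 208 and 186, with Vector lowest, and put YAP-S94A above Vector by a log2 value of 0.98. The probe sets had the same direction for YAP-WT over Vector and for each mutant below YAP-WT, and opposite directions for each mutant against Vector. Apart from SRF, every measured member read at least 597 on every array.

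**Figure D5:**
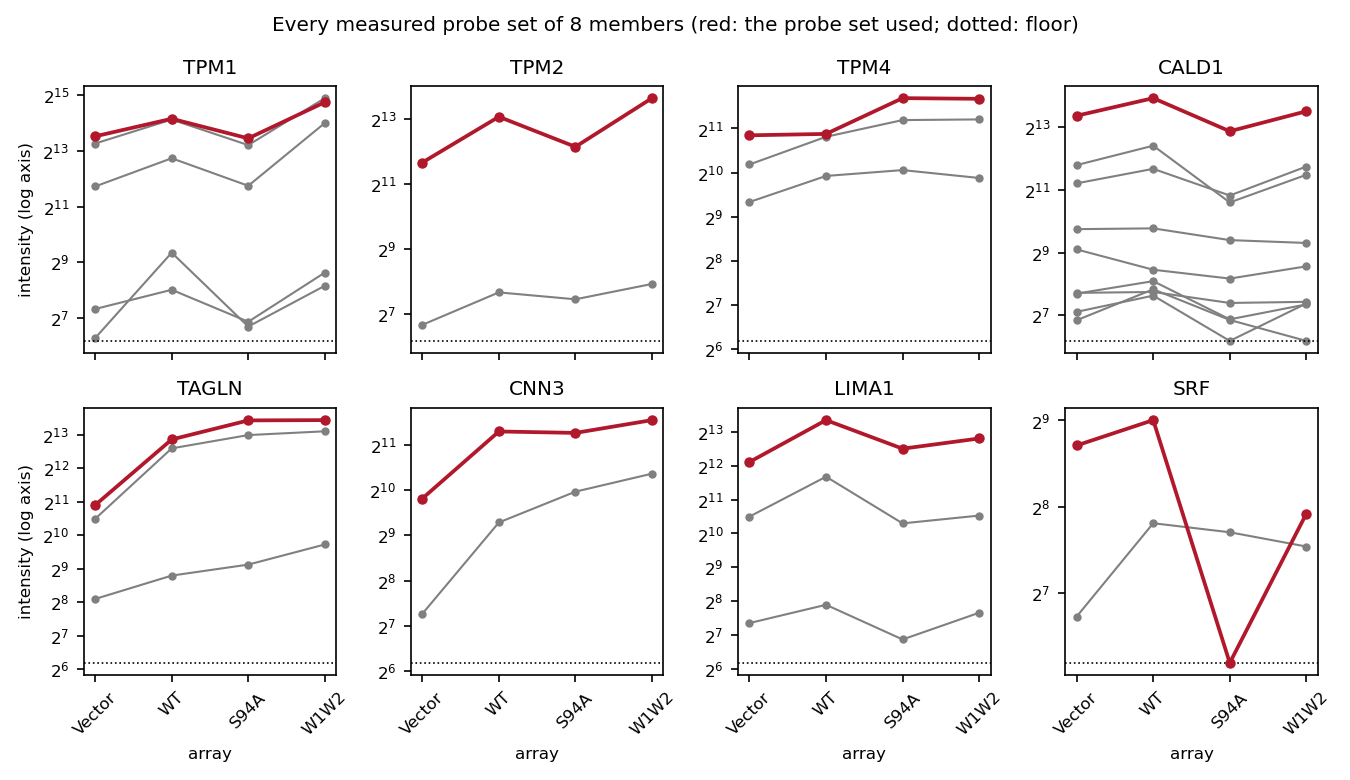
Intensity (log axis) of every measured probe set of 8 members on the 4 arrays, with the probe set that stands for the gene in red and the floor dotted. The 5 probe sets of TPM1 dip together in YAP-S94A, while the 2 of SRF part there.

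YAP-S94A was set against YAP-WT to ask which of these transcripts differ with the TEAD-binding change, without the Vector array. No member was at least 2-fold higher, against 5.06% of all measured genes, and 2 were at least 2-fold lower, SRF and CALD1, against 6.27%. The median log2 difference was −0.07, against 0.01 for all measured genes. Of the 29 members 17 were below 0 and 12 above it, where 51.1% of all measured genes were above it. Over the alternatives run the median went from −0.12 to 0.06. CALD1 was 2.08-fold lower, and all 9 of its measured probe sets were lower, by log2 values of −0.28 to −1.81. TPM2 was 1.90-fold lower, LIMA1 1.79-fold and TPM1 1.63-fold. All measured probe sets of these 3 genes were lower, and the 5 of TPM1 ranged from −0.70 to −2.65. In the other direction, TPM4 was 1.75-fold higher and TAGLN 1.48-fold, with all 3 probe sets of each higher.

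YAP-W1W2 was set against YAP-WT to ask the same of the WW domains. No member was at least 2-fold higher, against 3.91% of all measured genes, and only SRF was at least 2-fold lower, at 2.12-fold, against 5.59%. The median log2 difference was 0.16, against −0.04 for all measured genes. TPM4 was 1.74-fold higher, MYL9 1.69-fold, FHL2 1.52-fold and TPM1 1.51-fold, but probe sets of TPM4, MYL9 and TPM1 went both ways. For TPM1 they ran from −1.19 to 1.26. LIMA1 was 1.46-fold lower. PXN was 1.48-fold lower by its brighter probe set and higher by 0.47 (log2) by the other.

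Between the mutants, YAP-W1W2 over YAP-S94A, 3 members were at least 2-fold higher, TPM1, TPM2 and SRF, against 4.98% of all measured genes, and 0 were at least 2-fold lower, against 4.45%. The median log2 difference was 0.18, against −0.07 for all measured genes. Of the 29 members 23 were above 0, against 42.8% of all measured genes. For SRF only the brighter probe set was higher, by at least 3.32-fold. TPM2 was 2.82-fold higher, with both probe sets higher. TPM1 was 2.46-fold higher, and its 5 probe sets ranged from 1.30 to 2.25. MYL9 was 1.92-fold higher by its brighter probe set and lower by −1.25 (log2) by the other. PXN was 1.54-fold lower, the largest drop.

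A rule set after these values were seen, YAP-S94A at least 1.5-fold below both YAP-WT and YAP-W1W2, took TPM1, TPM2, SRF and CALD1, 4 of 29, against 6.84% of all measured genes. Because the rule was drawn from these members, the share over all genes cannot serve as a check on it. SRF passed by its brighter probe set only. For CALD1, 2 of its 9 measured probe sets had YAP-W1W2 below YAP-S94A. TAGLN, CNN2, ZYX, PDLIM7, CFL1 and PFN1, by contrast, were higher in YAP-S94A than in YAP-WT by the probe sets that stand for them, although those of CFL1 and PDLIM7 went both ways. For CFL1 and PFN1 these log2 differences were 0.32 and 0.14, and that of PFN1 turned negative under quantile normalization. The 7 measured members with a CArG box had median log2 folds over Vector of 0.29 under YAP-WT, 0.63 under YAP-S94A and 0.79 under YAP-W1W2. The 19 with a window and no box had 0.56, 0.48 and 0.69, so the middles of both sets lay above 0 and their ranges overlapped. No window was used for ACTB, TAGLN and MYL9, which stand in neither set. Their medians were 1.09, 0.90 and 1.84, so the 2 sets leave out TAGLN, the member with the highest folds.

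The wider pathway was read from 3 further lists of genes, with values for YAP-WT, then YAP-S94A, then YAP-W1W2. Of 32 other actin assembly genes, 3, 2 and 4 were at least 2-fold higher than Vector, and 0 were lower in each. These shares of 9.38%, 6.25% and 12.5% lay close to or below the 9.11%, 10.3% and 11.4% of all measured genes. Fascin (FSCN1), which bundles filaments in protrusions, read 895 for Vector, 2971 for YAP-WT, 4024 for YAP-S94A and 2440.0 for YAP-W1W2. The list's medians were 0.23, 0.22 and 0.27 (log2), against 0.14, 0.14 and 0.10 for all measured genes, and so nearer to them than those of the 29 members.

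Among 24 other focal adhesion genes, 3, 2 and 2 were at least 2-fold higher than Vector and 2, 5 and 3 at least 2-fold lower, in the same order. The shares higher were 12.5%, 8.33% and 8.33%, against 9.11%, 10.3% and 11.4% of all measured genes. The shares lower were 8.33%, 20.8% and 12.5%, against 4.95%, 6.53% and 8.4%. The medians were 0.58, 0.17 and 0.29 (log2). The actin-binding partner of ILK, parvin alpha (PARVA), read 762 for Vector, 2727 for YAP-WT, 696 for YAP-S94A and 3970.5 for YAP-W1W2. NEXN, or nexilin, an actin-binding protein, read 669, 1333, 201 and 1205. Both genes were thus lowest in YAP-S94A and higher than Vector in the other YAP arrays, as TPM1 was. PARVA and TPM1 were highest in YAP-W1W2, while NEXN was highest in YAP-WT. SORBS2, an adaptor of stress fibres, was lower than Vector in each YAP form, at 1057, 358, 114 and 159.5.

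Of 28 other actin-bound and SRF-linked genes, 9, 6 and 9 were at least 2-fold higher than Vector and 3, 1 and 2 lower, with medians of 0.42, 0.26 and 0.69 (log2). The shares higher were 32.1%, 21.4% and 32.1%, against 9.11%, 10.3% and 11.4% of all measured genes, and those lower 10.7%, 3.57% and 7.14%, against 4.95%, 6.53% and 8.4%. This list holds CCN1, CCN2 and ANKRD1, which are also known YAP targets, and EGR1, an immediate early SRF target. ANKRD1 was named after its values were seen. All 3 YAP targets are among the genes counted as higher in YAP-WT and in YAP-W1W2, so those shares follow in part from the choice of the list. EGR1 read 1447 for Vector, 3999 for YAP-WT, 5345 for YAP-S94A and 5304 for YAP-W1W2, high in all YAP arrays. CSRP2, a LIM protein of muscle-like cells, read 986, 1361, 1554.5 and 5210.4, high in YAP-W1W2 alone. Synaptopodin (SYNPO), an actin-bundling protein, read 958, 412, 151 and 45, the last under the floor. SMTN, or smoothelin, read 423, 726, 1816 and 797, highest in YAP-S94A.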

How the data were processed

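Biotin-labelled RNA of 4 MCF10A cultures was read on 4 arrays. Per the submitters' processing notes the deposited values are linear array intensities that the authors obtained with GCOS; the sources used here do not give its version or scaling target. The deposited table has 54675 probe sets, 62 of them controls. Names come from the platform annotation: 41097 probe sets had 1 symbol, 1801 several, 11777 none. Intensities were used as deposited because the 2% trimmed means differed by under 10%. Values were floored at 72.9, the 40th percentile, then put on a log2 scale. Where 1 of the arrays compared is under the floor, the fold is a lower bound. One probe set per gene, the brightest, gave 19775 genes, of which 12759 with a mean of at least 113.6 are measured. With 1 array per group no test was possible; genes were counted at 2-fold, and the number of arrays limits the precision. Counting was tested on simulated data. Members, roles and lists were chosen with earlier results of these data known. All 35 members could be named, and of the 3 further lists up to 4 genes per comparison that changed at least 2-fold above the floor; other names are marked as added later. DSTN stands in 2 of the lists. One further list is not reported here. Alternatives were other scalings, centrings, floors, probe set choices, the filter and 1.5-fold; centring within 10 bins of brightness was added after seeing the data. Python 3.11.15 with pandas 2.3.3 was used.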

Additional observations from a re-analysis of the deposited data

How the results depend on the processing

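At 1.5-fold, the members counted as higher were 14 for YAP-WT over Vector, 12 for YAP-S94A over Vector and 20 for YAP-W1W2 over Vector, or 48.3%, 41.4% and 69%, against 20.9%, 23.6% and 24% of all measured genes. They were 1 for YAP-S94A over YAP-WT, 4 for YAP-W1W2 over YAP-WT and 7 for YAP-W1W2 over YAP-S94A, or 3.45%, 13.8% and 24.1%, against 13.9%, 11.1% and 11.9% of all. Those lower were 5 for YAP-S94A over YAP-WT (17.2%, against 15.1% of all), 0 for YAP-WT over Vector and 1 in each of the other 4 comparisons, where 13.1% to 17.3% of all genes were lower. For YAP-WT over Vector 4 members stayed at least 2-fold higher, in place of 7, with 2% trimmed means made equal, the median gene centred at 0, quantile normalization, or bins of brightness centred at 0, the last chosen after seeing the data. In turn, 13.8% of members stood against 7.26%, 7.14%, 7.98% and 7.48% of all genes. Those bins also moved the median of YAP-S94A over Vector to 0.275. Quantile normalization left 0 members lower in YAP-W1W2 than YAP-WT, as did the mean over probe sets, against 4.56% and 4.91% of all genes. That mean also left 0 lower in YAP-S94A than Vector, against 6.09% of all. For YAP-W1W2 over YAP-S94A that mean gave 1 higher and 1 lower (3.45% each, against 4.55% and 4.19% of all). With only probe sets lacking the _s_at, _x_at or _a_at suffix, 20 members were measured. Counts higher than Vector were then 2 for YAP-WT, 2 for YAP-S94A and 4 for YAP-W1W2 (10%, 10% and 20%, against 9.33%, 9.98% and 11.3% of all genes). For YAP-S94A 0 were lower than Vector, against 7.17% of all. YAP-W1W2 over YAP-S94A had 1 higher and 1 lower (5% each, against 5.49% and 4.56% of all). The median of YAP-W1W2 over Vector was 0.43, and MYL9 reversed to −0.77 there. The cause of these shifts was not tested, apart from the fewer genes measured. Without a floor the 18 counts and medians were as reported. A floor at the 60th percentile took the count higher for YAP-W1W2 over YAP-S94A from 3 to 2 (6.9%, against 2.68% of all). Without the filter the counts were as reported, and the median for YAP-WT over Vector was 0.52 in place of 0.56, with smaller shifts or none in the other medians. No paired analysis was possible because each group had 1 array, and for the same reason no array could be left out.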

Other observations

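The muscle actin genes ACTG2 and ACTC1, the latter named after its values were seen, had YAP-WT as their lowest array. ACTG2 read 253 for Vector, 78.6 for YAP-WT, just above the floor, 474 for YAP-S94A and 293 for YAP-W1W2. ACTC1 read 378, 144.5, 455 and 260. The beta- and gamma-actin probe sets were lowest in Vector instead, so the actin genes did not share 1 order over the arrays.

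TUFT1, which encodes tuftelin, read 3096.5 for Vector, 12029.5 for YAP-WT, 3272 for YAP-S94A and 8060 for YAP-W1W2. MYPN, or myopalladin, an actin-anchoring protein named after its values were seen, read 948, 2027, 733 and 1542. Both were highest in YAP-WT, with YAP-S94A near Vector or below it.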
